A study of Homo sapiens with 22 samples.

Results

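The peaks around 9 genes of the SOX family, SOX4, SOX5, SOX6, SOX8, SOX9, SOX10, SOX11, SOX12 and SOX13, were compared between control and knockdown cells. They are 9 of 19962 protein-coding genes annotated by GENCODE release 44 on hg38, and SOX2 was set aside. Each gene was read as a window made of its body and 50 kb to each side. All listed peaks that touched a window were taken, together with runs of at least 4 consecutive GGAA units on either strand.

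The cells were TC-32, an established Ewing sarcoma line that carries the fusion EWSR1::FLI1. One arm received a negative control siRNA (siNEG) and the other an siRNA directed at FLI1 (siFLI1), each at 20 nM, the latter to deplete the fusion. The time from transfection to fixation was not given in the sources used here. Chromatin immunoprecipitation was sequenced for the transcription factor ETS1, for H3K27ac (a histone acetylation of active enhancers and promoters) and for H3K4me3 (a histone methylation of promoters). The labels give each of these 2 replicates per arm. In addition, each arm had 1 H3K27ac library called ab4729 here and read separately. Its label names ab4729 beside the catalogue number of the replicated H3K27ac libraries, so which antibody it used is uncertain. A further 8 input libraries completed the 22 samples. Every group is the same single line, and the labels do not say whether replicates were separate transfections, so SDs and p-values measure the spread between libraries. The depletion itself was not analysed here.

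SOX proteins bind DNA through an HMG box like that of SRY, bend it, and act with partner factors on cell fate. SOX4, SOX11 and SOX12 form the SOXC group of neural and mesenchymal progenitors. SOX5, SOX6 and SOX13 form the SOXD group, which lacks a known activation domain and works alongside other factors, as SOX5 and SOX6 do with SOX9 in cartilage. SOX8, SOX9 and SOX10 form the SOXE group of neural crest, glia and cartilage. In Ewing sarcoma the fusion binds GGAA microsatellites, which then act as enhancers, and SOX6 is a known target of the fusion.

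The 9 windows held 20 GGAA repeats. SOX6 had 7 of them, SOX5, SOX11 and SOX13 had 3 each, SOX12 had 2, SOX4 and SOX9 had 1 each, and SOX8 and SOX10 had none. The repeats of SOX6 and the longer ones of SOX5 are printed below because H3K27ac is described around each of them, including 1 SOX6 repeat with no peak within 1 kb in any list. All lie in introns. Each sequence is from hg38, written along the strand that reads GGAA with 12 bases to each side, and capitals mark the repeat units.
SOX6 chr11:16022296-16022387, minus strand, 11 and 5 units: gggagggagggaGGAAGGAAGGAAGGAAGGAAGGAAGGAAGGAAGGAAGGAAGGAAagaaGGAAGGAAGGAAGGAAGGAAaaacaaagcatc
SOX6 chr11:16125806-16125889, plus strand, 15 units: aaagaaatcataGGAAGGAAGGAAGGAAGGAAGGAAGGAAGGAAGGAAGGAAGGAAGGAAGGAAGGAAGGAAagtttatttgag
SOX6 chr11:16132258-16132345, plus strand, 16 units: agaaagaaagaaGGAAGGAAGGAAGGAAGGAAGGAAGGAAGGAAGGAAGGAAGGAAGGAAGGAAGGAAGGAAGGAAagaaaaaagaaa
SOX6 chr11:16349664-16349770, plus strand, 10 and 10 units: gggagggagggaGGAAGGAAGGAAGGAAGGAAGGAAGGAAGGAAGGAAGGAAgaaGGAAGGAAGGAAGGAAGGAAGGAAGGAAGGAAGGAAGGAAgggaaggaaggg
SOX6 chr11:16373811-16373898, plus strand, 16 units: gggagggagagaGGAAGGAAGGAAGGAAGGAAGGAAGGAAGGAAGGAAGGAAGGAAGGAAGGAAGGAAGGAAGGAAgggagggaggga
SOX5 chr12:24307441-24307528, plus strand, 16 units: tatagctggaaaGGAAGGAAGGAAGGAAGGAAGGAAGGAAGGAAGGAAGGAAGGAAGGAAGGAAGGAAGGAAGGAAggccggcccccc
SOX5 chr12:24307751-24307802, plus strand, 7 units: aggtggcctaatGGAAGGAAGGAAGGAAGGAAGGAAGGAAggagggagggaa

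The lists differed in size between arms. H3K27ac peaks covered 63.0 and 58.6 Mb in the siNEG lists and 69.2 and 65.6 Mb in the siFLI1 lists, and H3K4me3 peaks covered 43.3 and 44.7 Mb against 40.5 and 41.7 Mb. Covered length in a window was therefore compared as its share of the list's whole covered length, on the log2 scale (siFLI1 over siNEG). Over all genes covered in all 4 lists the median of this value was 0.11 for H3K27ac and -0.024 for H3K4me3. In base pairs these medians were 0.26 and -0.12. Promoters of 7 of 7 Ewing sarcoma marker genes carried H3K4me3 and H3K27ac in every replicated list. Of 7 markers of other cell types, only PMEL had a promoter peak of H3K4me3, and 1 to 2 had one of H3K27ac. With 2 lists against 2 an exact two-sided permutation test cannot go below p = 0.33, so no difference here could pass a threshold of 0.05. Read depth was not given in the sources used here.

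At their promoters (within 1 kb of an annotated start), 7 of 9 genes carried H3K4me3 in all 4 lists, beside 63.9% and 64.2% of all protein-coding genes in the siNEG lists and 65.0% and 65.2% in the siFLI1 lists. SOX8 and SOX10 had none in any list. H3K27ac lay at the promoters of SOX4, SOX5, SOX6, SOX11, SOX12 and SOX13 in all 4 replicated lists, where 53.1% and 49.6% of all genes had it in siNEG and 54.4% and 53.7% in siFLI1. The ab4729 lists held it at 4 of the 9 promoters in siNEG and 5 in siFLI1, beside 44.7% and 49.8% of all genes. SOX10 had it in siNEG list 1 only. SOX9 carried promoter H3K4me3 without H3K27ac in every list, and SOX8 carried neither. Counted over all annotated starts of a gene together, none of the 9 gained or lost either mark in both lists of an arm against neither of the other.

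SOX6, a SOXD factor of cartilage, muscle, red cell and neuronal development, had the largest fall in H3K27ac among the 7 of these 9 genes that were covered in all 4 lists. H3K27ac peaks covered 62.1 and 54.4 kb of its 873 kb window in the siNEG lists and 33.7 and 37.1 kb in the siFLI1 lists. Both siFLI1 values lay well under both siNEG values. The mean fell from 58.3 ± 5.41 kb (SD, n = 2) to 35.4 ± 2.42 kb (SD, n = 2), which is 60.7% of the siNEG mean. As a share of each list the log2 change was -0.87, with an SD within arms of 0.12 (exact permutation p = 0.33, Benjamini-Hochberg adjusted p = 0.52 over 15204 genes). Both siFLI1 lists lay below both siNEG lists in 24.1% of all genes tested and above in 39.9%, and 4.42% of genes had a value at or below that of SOX6. Among 1110 genes with bodies over 200 kb, where the 2 directions were equally common (36.2% below and 36.1% above), SOX6 ranked number 123 from the lowest.

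Most of the covered length that went at SOX6 went from regions that at least 1 siFLI1 list still held, or that only 1 siNEG list had held. Its window held 72 merged H3K27ac regions. Of these, 14 were in all 4 lists, 4 were lost (in both siNEG lists and neither siFLI1 list) and 2 were gained (the reverse). The 14 shared regions went from 41.5 and 37.7 kb to 26.9 and 29.6 kb. The lost regions accounted for 4.68 and 2.71 kb, and the 52 regions with any other pattern went from 16.2 and 14.1 kb to 5.59 and 6.67 kb. Of the 14 shared regions, 11 were narrower in both siFLI1 lists than in both siNEG lists and 0 were wider, beside 21.3% narrower and 35.4% wider among 22724 shared regions of the genome.

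**Figure D1:**
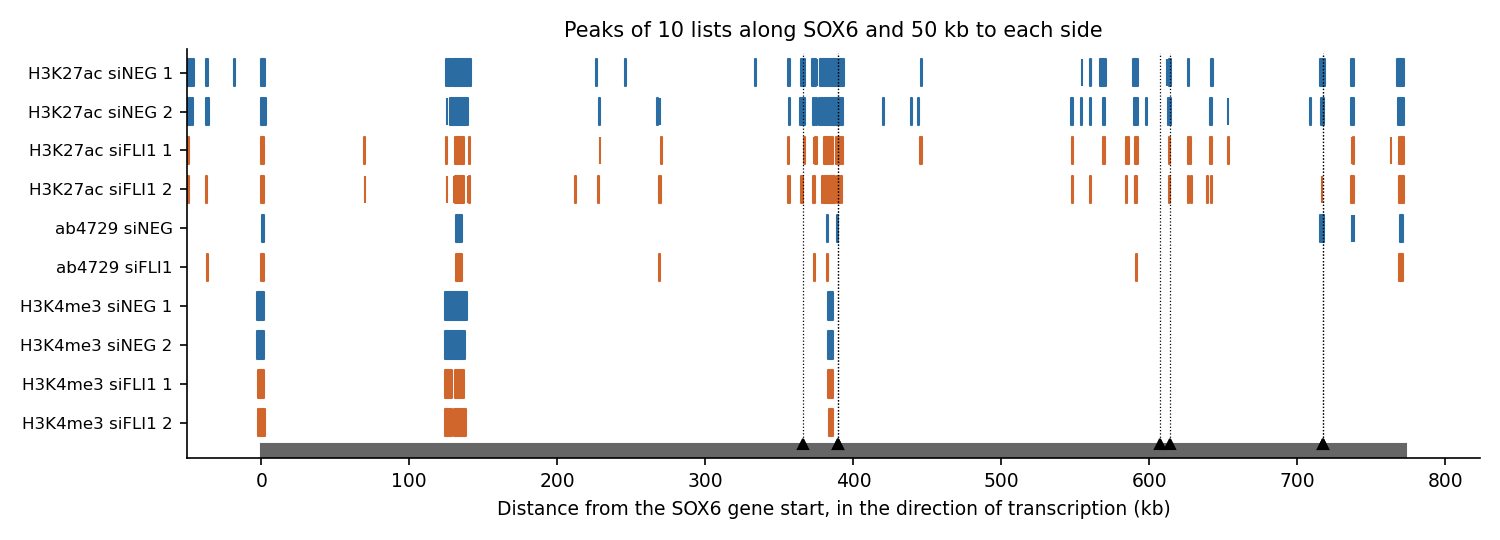
Peaks of 10 lists along SOX6, by distance from the gene start in kb (blue siNEG, orange siFLI1; grey bar, gene body; triangles and dotted lines, GGAA repeats). H3K27ac peaks are fewer and narrower in both siFLI1 lists, most visibly around the repeat 390 kb into the gene, where peaks fill most of the 5 kb to each side in the siNEG lists.

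The widest shared H3K27ac region of SOX6, chr11:16349761-16360731, spans an internal start of the gene and begins 2 bases after the repeat with 10 and 10 units. It covered 10771 and 9992 bp in siNEG and 5980 and 7356 bp in siFLI1. On the other side of the same repeat, chr11:16346226-16349596 covered 3371 and 2707 bp in siNEG and 1998 and 1627 bp in siFLI1. The regions therefore flanked the repeat on both sides, and each was narrower after knockdown. The top fold of each also ranked lower within both siFLI1 lists. For the widest region it was at the 82.2 and 88.1 percentile, against 92.0 and 93.2 in siNEG. The region at a second internal start, chr11:16602060-16610645, was also narrower, with 8076 and 8434 bp against 5971 and 6845 bp. Its top fold did not rank lower, at the 84.5 and 94.0 percentile in siNEG and 87.7 and 97.0 in siFLI1. In the ab4729 pair it covered 2378 bp in siNEG and 3297 bp in siFLI1, the opposite direction. The region over the outermost start, chr11:16737413-16740013, also at a start of C11orf58, covered 2601 and 2093 bp against 2012 and 1955 bp, a smaller difference. At the far end of the gene, over the last exon, chr11:15967303-15971950 covered 4446 and 3971 bp against 3420 and 3259 bp. At the outermost start the fold percentiles were 97.1 and 96.2 in siNEG and 97.7 and 99.0 in siFLI1. Over the last exon they were 90.5 and 76.9 against 89.4 and 92.6. The ab4729 libraries covered more in siFLI1 at both, with 1051 against 1451 bp and 1175 against 1733 bp.

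The 4 lost regions were all at SOX6, out of 140 H3K27ac regions in the 9 windows. SOX6 alone held 72 of the 140, and 5.56% of its regions were lost, near the share of the genome. Genome-wide 4.86% of 90572 regions were lost and 8.19% were gained. A lost region lay in the window of 23.0% of protein-coding genes, and a gained one in that of 38.1%. Of the 4, 1 had a GGAA repeat within 1 kb of its centre, as did 11.2% of lost, 0.620% of gained and 1.59% of shared regions of the genome. Among the lost regions the intronic chr11:16021280-16022189 lay beside the repeat with 11 and 5 units, and covered 910 and 696 bp in the siNEG lists. Its deposited fold over local background was 4.77 and 6.68, at the 54.8 and 80.4 percentile of these lists. The lost region chr11:16775305-16776347, 35714 bases upstream of the nearest SOX6 start and between SOX6 and its neighbour PLEKHA7, covered 922 and 367 bp. In the ab4729 pair it was held in siFLI1 (175 bp) and not in siNEG, the opposite direction. The lost chr11:16610765-16612918, with 1647 and 1293 bp, lies within 1 kb of a start of C11orf58, which overlaps SOX6, and peaks carry no strand that would assign it to either gene. The last, chr11:16360960-16362159, lay 4414 bases from the nearest SOX6 start, next to the widest shared region, and covered 1200 and 355 bp. The 2 gained regions, both intronic, were chr11:16154858-16155737, with 880 and 491 bp in siFLI1, and chr11:16669474-16669868, with 303 and 363 bp. The lost count over the 9 windows rested on the lists used: it was 8 to 38 without 1 list and 1 where no peak of the other arm was allowed within 1 kb.

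H3K27ac lay close to 6 of the 7 SOX6 repeats, within 1 kb in both siNEG lists. Only the 16 units at chr11:16132258-16132345 had no peak within 1 kb in any list. Genome-wide, 10.7% of 16606 repeats of 4 or more units had H3K27ac within 1 kb in both siNEG lists. Among the 3376 of 10 or more units it was 23.4%. Repeats a few bases apart, as at SOX6, count separately here. Of the 6, 0 had lost it from both siFLI1 lists and 3 had it in both. Among the 1774 repeats of the genome with H3K27ac within 1 kb in both siNEG lists, 30.7% had it in no siFLI1 list and 57.2% in both (3.28% and 6.11% of all 16606 repeats). At 3 of the 6 SOX6 repeats, siFLI1 list 1 had no peak within 1 kb and only the other siFLI1 list held H3K27ac. Of the 1774 repeats, 12.2% had it in exactly 1 siFLI1 list. In the ab4729 pair, H3K27ac lay within 1 kb of 4 SOX6 repeats in siNEG and 0 in siFLI1. The length covered around the SOX6 repeats changed as well.

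Within 5 kb of the repeat with 11 and 5 units, peaks covered 2781 and 1874 bp in siNEG and 0 and 353 bp in siFLI1. Around the 15 units the values were 1070 and 1336 bp against 327 and 530 bp. A like fall was seen at the other 2 places. Around the block with 10 and 10 units the values were 8204 and 7293 bp against 3901 and 4384 bp. Around the 16 units at chr11:16373811-16373898 they were 2342 and 2533 bp against 650 and 550 bp. In all 4 places both siFLI1 lists were below both siNEG lists. The same direction held for 92.9% of 790 repeats of 10 or more units that had H3K27ac within 1 kb in both siNEG lists, and the reverse held for 1.27%. Over 1774 such repeats of 4 or more units these shares were 81.6% and 4.96%. Because such repeats were picked for acetylation in the siNEG lists alone, the choice itself favours a lower siFLI1 value, at SOX6 too.

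No H3K27ac peak of any list reached over the SOX6 or SOX5 repeats themselves, although 54.6% of 1774 acetylated repeats of the genome were covered by a siNEG peak. In siNEG list 1 the peak ends stood 79 and 2 bases from the block with 10 and 10 units, on its left and right. At the 16 units of chr11:16373811-16373898 they stood 323 and 38 bases away. How reads that fall inside such repeats were placed or dropped was not tested.

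In the replicated lists the loss at SOX6 was steeper near the repeats and was present away from them. The 5 kb around its repeats made up 46.7 kb, or 5.35% of the window, and held 14.4 and 13.0 kb of covered length in siNEG and 4.88 and 5.82 kb in siFLI1, a log2 change in share of -1.51 with an SD of 0.17. The rest of the window held 47.7 and 41.4 kb in siNEG and 28.8 and 31.3 kb in siFLI1, a log2 change of -0.71 with an SD of 0.11. In siNEG list 1, 30.8% of the bases near repeats were covered, against 5.77% of the rest. After knockdown the same figures were 10.4% and 3.48% in siFLI1 list 1, so the zones near the repeats were still the denser ones.

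**Figure D2:**
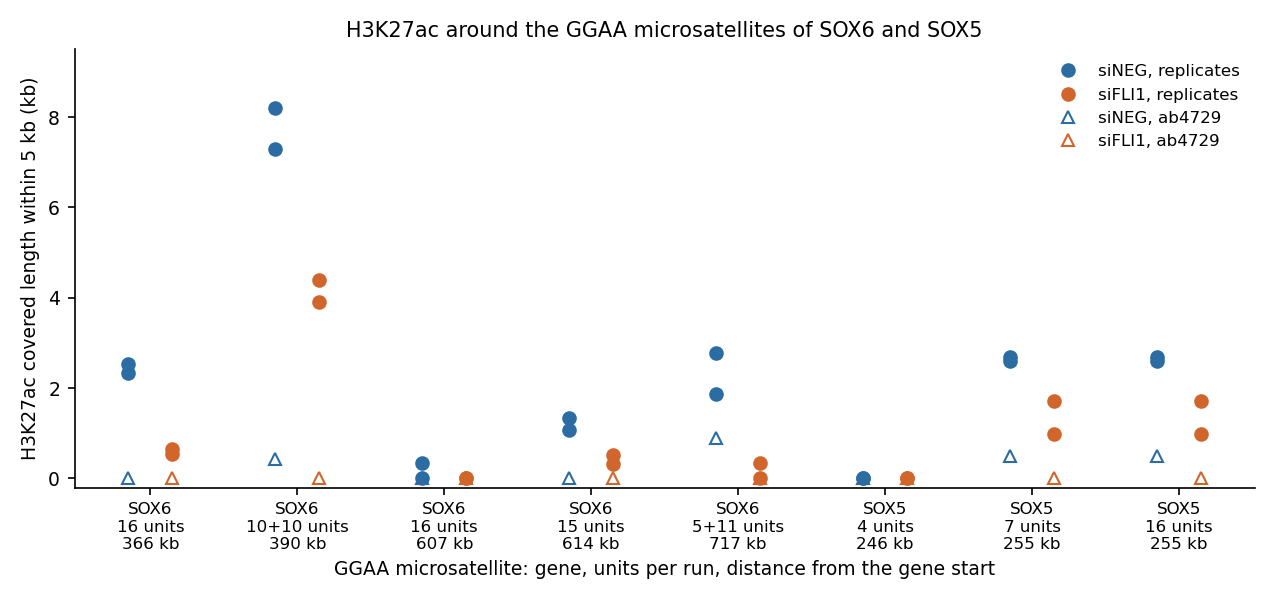
H3K27ac covered length in kb within 5 kb of each GGAA repeat of SOX6 and SOX5, by list (blue siNEG, orange siFLI1; filled circles, 2 replicates per arm; open triangles, 1 ab4729 library per arm). At 4 of 5 SOX6 repeats and at the 7- and 16-unit repeats of SOX5, which share most of their surroundings, both siFLI1 circles lie below both siNEG circles.

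The methylation mark at SOX6 moved less. H3K4me3 covered 22.5 and 22.1 kb of the window in siNEG and 18.0 and 20.6 kb in siFLI1, a log2 share of -0.11 with an SD of 0.09, and the groups overlapped on that scale. Its 3 shared regions went different ways. At the outermost promoter, chr11:16736792-16742042, which also lies within 1 kb of a start of C11orf58, they covered 3929 and 4107 bp in siNEG and 4282 and 4998 bp in siFLI1, wider after knockdown. At the internal promoter near the repeats, chr11:16353041-16356752, the values were 3514 and 3698 bp against 2846 and 2853 bp. At the second internal promoter, chr11:16600827-16615795, which also spans a start of C11orf58, they were 14717 and 13952 bp against 10882 and 12753 bp. Both internal promoters were narrower after knockdown. Genome-wide 37.2% of shared H3K4me3 regions narrowed in this way and 17.3% widened. A small lost region, chr11:16742153-16742592, lay upstream of the gene, with 366 and 320 bp in siNEG.

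The single ab4729 libraries gave SOX6 less clearly. They covered 6.75 kb in siNEG and 7.97 kb in siFLI1, while the whole lists covered 15.4 and 25.5 Mb. The base pairs were thus higher and the share lower (log2 0.24 and -0.49) after knockdown. Near the repeats these libraries held 900 bp around the 11 and 5 units and 422 bp around the 10 and 10 units in siNEG, and 0 bp at every SOX6 repeat in siFLI1. More than 5 kb from the repeats they covered 5.43 kb in siNEG and 7.97 kb in siFLI1, so base pairs there were higher after knockdown. With 1 library per arm no replicate error can be given.

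Measured by lost minus gained H3K27ac regions per Mb of window, the genes with bodies of over 200 kb closest to SOX6 (2.29 per Mb) were ANO10, CADM1 and HS6ST2. ANO10 and CADM1 each rested on 1 lost and 0 gained regions, and HS6ST2 on 2 lost and 1 gained.

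SOX5, the close relative of SOX6, spans 1033 kb, yet peaks covered little of it. H3K27ac covered 16371 and 12001 bp of its window in siNEG and 12937 and 14123 bp in siFLI1, so the arms overlapped (log2 share -0.20, SD 0.20, exact permutation p = 0.67). Around its 16- and 7-unit repeats, which lie some 255 kb into the gene, the covered length was 2.68 and 2.61 kb in siNEG and 0.986 and 1.72 kb in siFLI1. Both siFLI1 values there were the lower ones (log2 share -1.17, SD 0.44). In the rest of the window the values were 13692 and 9391 bp against 11951 and 12407 bp, with overlap. As at SOX6, regions stood on either side of the repeats: chr12:24305857-24307225 covered 1128 and 1285 bp in siNEG and 610 and 786 bp in siFLI1, and chr12:24307803-24309441 covered 1551 and 1325 bp against 376 and 930 bp. A region with no repeat near it, chr12:24378717-24380980, was also narrower in both siFLI1 lists, with 2264 and 1900 bp against 1532 and 1501 bp. Of the other shared regions of SOX5, chr12:23554491-23556766 was wider, with 1082 and 737 bp against 1315 and 1888 bp. In the ab4729 libraries peaks covered 488 bp around these repeats in siNEG and 0 bp in siFLI1.

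The SOX5 window also held 1 gained H3K27ac region, the intronic chr12:24070052-24070630, with 314 and 579 bp in siFLI1. H3K4me3 was gained at an internal start of SOX5, chr12:23948723-23949671, where it covered 566 and 949 bp in siFLI1 and nothing in siNEG. Its deposited fold was 3.88 and 4.02, at the 10.9 and 12.2 percentile, so it was a weak peak of these lists. Of all H3K4me3 regions of the genome, 2.17% were gained. The main SOX5 promoter, chr12:24560014-24564183, covered 3873 and 4056 bp in siNEG and 3961 and 3872 bp in siFLI1, with overlap.

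SOX13, the third SOXD gene, went the other way from SOX6. H3K27ac covered 8.19 and 6.08 kb of its window in siNEG and 12.2 and 13.3 kb in siFLI1. Both siFLI1 lists were the higher ones, with means of 7.13 ± 1.49 kb and 12.7 ± 0.80 kb (SD, n = 2) and a log2 share of 0.70 with an SD of 0.19 (exact permutation p = 0.33, adjusted p = 0.52). The region over an internal start, chr1:204076931-204085486, accounted for much of it, with 4997 and 4802 bp against 7428 and 6995 bp. The gained regions were chr1:204040886-204041954, at the start of the noncoding gene LINC00303, with 982 and 1003 bp, and chr1:204126920-204127617 at the 3′ end, with 356 and 698 bp. The ab4729 libraries covered 427 bp in siNEG and 2789 bp in siFLI1. None of its 3 repeats, the longest of 9 units, had a peak within 1 kb in any list. Within 5 kb of the 2 repeats with 9 and 4 units, H3K27ac covered nothing in siNEG and 982 and 1003 bp in siFLI1. That length is the gained region at LINC00303, and its direction is opposite to that around the SOX6 repeats. H3K4me3 covered 5.88 and 6.01 kb against 6.67 and 6.78 kb (log2 share 0.28, SD 0.01), but within 10 kb of the gene the log2 share was 0.08. The region that changed most was at the start of the neighbour ETNK2, with 1090 and 1439 bp against 1773 and 2425 bp.

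**Figure D3:**
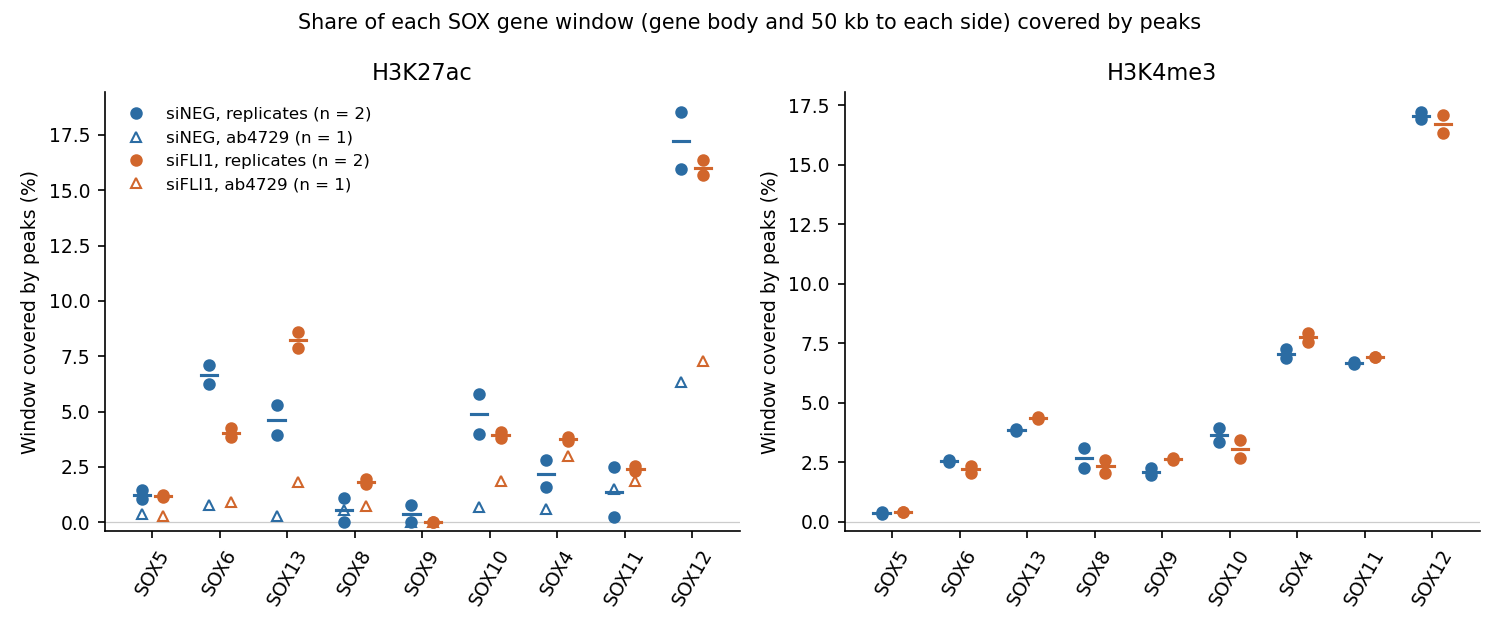
Share in percent of each gene's window covered by H3K27ac (left) and H3K4me3 (right) peaks, by list (blue siNEG, orange siFLI1; circles, replicates with a bar at the mean of 2; triangles, 1 ab4729 library per arm). SOX6 falls from 7.11 and 6.24% to 3.86 and 4.25% for H3K27ac, whereas SOX13 rises from 5.29 and 3.93% to 7.87 and 8.61%.

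Of the SOXC genes, SOX4, a factor of progenitors and many tumours, held more H3K27ac after knockdown. Peaks covered 2.94 and 1.67 kb of its window in siNEG and 4.06 and 3.84 kb in siFLI1. Both siFLI1 lists were higher, although the siNEG lists differed from each other by almost as much (log2 share 0.69, SD 0.36, exact permutation p = 0.33, adjusted p = 0.52). The region over the gene, chr6:21593775-21596996, covered 2669 and 1665 bp against 2903 and 2800 bp. A gained region, chr6:21588317-21589356, lay 4395 bases upstream of the start and covered 540 and 1040 bp in siFLI1. The ab4729 list of siFLI1 held the same place with 632 bp and that of siNEG did not. Over the whole window the ab4729 libraries covered 635 and 3138 bp.

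The upstream site of SOX4 already carried H3K4me3 in all 4 lists, at chr6:21587230-21589545, with 1908 and 1967 bp in siNEG and 2233 and 2104 bp in siFLI1. No annotated start of any gene lies within 1 kb of it. H3K4me3 was also gained in a short region just upstream of the SOX4 start, chr6:21593023-21593504, with 275 and 389 bp in siFLI1. It was weak there, with a deposited fold at the 19.5 and 11.7 percentile of the lists. Over the window it covered 7.20 and 7.62 kb against 7.92 and 8.32 kb (log2 share 0.23, SD 0.02).

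ETS1, an ETS factor that binds GGAA cores, was listed at the same upstream site of SOX4 in both siFLI1 lists, over chr6:21588022-21588529, and in no siNEG list. The deposited fold there was 5.18 and 6.52, at the 21.9 and 46.0 percentile of the lists, so the peak was of middling or lower strength among ETS1 peaks. The 101 bases around its summit in list 2 are shown because this is the one ETS1 site outside a transcribed exon that both siFLI1 lists held. They contain neither GGAA nor TTCC, so nothing is in capitals.
SOX4 upstream ETS1 summit, chr6:21588231-21588331, plus strand: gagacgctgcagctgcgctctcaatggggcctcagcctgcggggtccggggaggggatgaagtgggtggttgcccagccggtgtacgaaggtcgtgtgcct

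**Figure D4:**
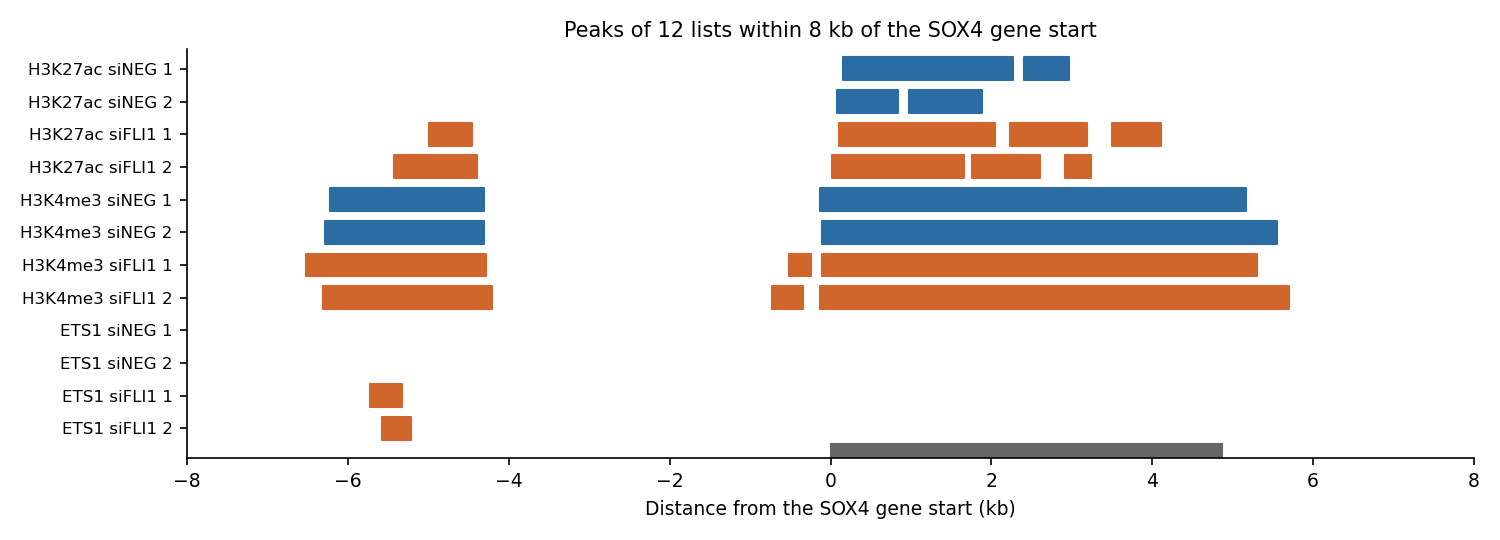
Peaks of 12 lists within 8 kb of the SOX4 start, by distance in kb (blue siNEG, orange siFLI1; grey bar, gene body). About 5 kb upstream, H3K4me3 is present in all 4 lists, while H3K27ac and ETS1 peaks are present in the siFLI1 lists only.

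The 9 windows held 4 merged ETS1 regions, of which 2 were in both siFLI1 lists and neither siNEG list (SOX4 and SOX12) and 2 were in siFLI1 list 2 only (SOX9 and SOX11). No siNEG list had an ETS1 peak in any window. At promoters, 0 of the 9 genes had ETS1 in siFLI1 list 1 and 2 had it in list 2, beside 8.17% and 12.1% of all genes, and 1.59% and 1.06% of all genes had it in the siNEG lists. Of 2706 ETS1 regions of the genome, 44.0% had the first pattern, 0.0739% the opposite one and 4.66% were in all 4 lists, and the siNEG lists held 302 and 208 peaks against 1633 and 2635. The summit heights of both siFLI1 lists were closer to each other than counting noise allows for separate libraries (chi-square per degree of freedom 0.42 over 496 regions, lower-tail p = 5.29e-33), and the peak names of replicate 1 carry the number 2. They differed by less than the sampling noise and were counted as 1 sample, so ETS1 has no replicate check in that arm. A peak in both siFLI1 ETS1 lists is therefore a peak in 1 sample, and the ETS1 counts here describe the lists. With equal numbers of the strongest peaks in each list, 0 of the 4 regions kept the first pattern.

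At SOX12, a SOXC gene with a single exon, the ETS1 region chr20:327141-327460 lay in the exon, with a deposited fold of 5.63 and 7.74. It overlapped the end of the gained H3K27ac region chr20:327428-327855, which covered 400 and 317 bp in siFLI1. At both SOX4 and SOX12 the gained ETS1 region thus touched a gained H3K27ac region. This was looked for after the positions had been seen. Among the 1190 gained ETS1 regions of the genome, 2.44% touched a gained H3K27ac region and 0.336% a lost one. At SOX9, the ETS1 peak chr17:72120756-72120910 lay just upstream of the start, with a fold of 7.33, and 2 GGAA cores on either strand occurred within 50 bases of its summit. At SOX11, the peak chr2:5692390-5692589 lay in the 5′ exon, with a fold of 5.99. GGAA on either strand occurred around 65.2% of the 2635 summits of that list. The longer motif CCGGAA, which contains GGAA, occurred around 10.7% of them and around none of the 4 SOX summits.

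SOX12 gave opposite directions near and far. Its window was the most densely covered of the 9, with H3K27ac over 18.51% and 15.97% of bases in siNEG and 16.4% and 15.7% in siFLI1. As a share of the list this was lower after knockdown (log2 -0.25, SD 0.05, exact permutation p = 0.33), with 19.4 and 16.7 kb against 17.1 and 16.4 kb, which overlap in base pairs. Within 10 kb of the gene the covered length was instead 2.81 and 2.05 kb in siNEG and 4.07 and 4.58 kb in siFLI1, higher after knockdown (log2 share 0.70). The region over the start, chr20:325459-327050, covered 1146 and 1330 bp against 1581 and 1545 bp. Of the 7 shared regions in the window, 4 were narrower in both siFLI1 lists, and all 4 lay outside the gene. At neighbouring genes, chr20:296915-303334 at ZCCHC3 covered 6099 and 5657 bp against 5483 and 4591 bp, and chr20:379950-381839 at TRIB3 covered 1890 and 1057 bp against 977 and 448 bp. Away from gene starts, chr20:308357-310532 covered 2038 and 1706 bp against 1387 and 1604 bp.

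The last of the 4, chr20:370414-374537, lay downstream of SOX12 and held the one repeat of the 9 windows with a peak over it, of 4 units. It covered 4038 and 3923 bp in siNEG and 2410 and 3321 bp in siFLI1, and ab4729 held it in both arms with 2059 and 1390 bp. H3K4me3 over the SOX12 gene, chr20:323720-330922, narrowed from 7051 and 6960 bp to 5690 and 6192 bp, while H3K27ac over the same gene widened. The whole SOX12 window gave H3K4me3 of 17.7 and 18.0 kb against 17.1 and 17.9 kb.

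SOX11, the SOXC factor best known from developing neurons, had H3K27ac that differed more between the siNEG lists than between arms. It covered 2716 and 275 bp in siNEG and 2774 and 2524 bp in siFLI1, with overlap (log2 share 1.47, SD 1.60, exact permutation p = 1). Without siNEG list 2 the log2 share was -0.13. H3K4me3 covered 7331 and 7228 bp against 7524 and 7559 bp, a small and tight difference (log2 share 0.15, SD 0.04). None of its 3 repeats, the longest of 10 units, had a peak within 1 kb.

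The SOXE genes differed in acetylation. SOX9, the master factor of cartilage, had no H3K27ac peak in its window in 3 of 4 lists, and 837 bp in siNEG list 1, so it was not tested. Its H3K4me3 region, chr17:72120546-72123368, nevertheless widened from 2051 and 2383 bp to 2811 and 2745 bp (log2 share 0.43, SD 0.09, exact permutation p = 0.33, adjusted p = 0.58 over 15997 genes), the largest H3K4me3 difference of the 9 genes. SOX10, a factor of Schwann cells and melanocytes, had H3K27ac over 4.64 and 6.78 kb in siNEG and 4.44 and 4.75 kb in siFLI1 (log2 share -0.44, SD 0.34). The share was lower in both siFLI1 lists, but the base pairs overlapped and the siNEG lists lay far apart. Within 10 kb of the gene the log2 share was -0.74. An intronic region of SOX10 in all 4 lists, chr22:37974423-37977068, covered 1709 and 2608 bp against 1624 and 2054 bp, with overlap. In the ab4729 pair SOX10 had 833 bp in siNEG and 2173 bp in siFLI1, the opposite direction. Its only H3K4me3 region in all 4 lists lay at the starts of C22orf23 and POLR2F, with 4314 and 3633 bp against 3148 and 3671 bp. At SOX8 every peak lay 10 kb or more upstream, at starts of LMF1, and H3K27ac there covered 1180 and 0 bp in siNEG and 2047 and 1809 bp in siFLI1.

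Over the 9 genes the directions of covered share were mixed for H3K27ac and mostly upward for H3K4me3. Of 7 genes with H3K27ac in all 4 lists, 2 were above in both siFLI1 lists (SOX4, SOX13), 3 were below (SOX6, SOX10, SOX12) and 2 overlapped, with a median log2 share of -0.20, where 39.9% of 15204 genes were above and 24.1% below. SOX10 and SOX12 overlapped in base pairs. For H3K4me3, 6 of 9 were above (SOX4, SOX5, SOX9, SOX11, SOX12, SOX13) and 0 were below, with a median of 0.15, where 24.7% of 15997 genes were above and 32.4% below. The top H3K4me3 fold of the window ranked lower within both siFLI1 lists at SOX4, SOX11 and SOX12, and higher at SOX5. At SOX4 its percentiles were 69.1 and 83.7 in siNEG and 56.9 and 59.0 in siFLI1. Those of SOX11 were 75.1 and 72.3 against 52.8 and 61.0. At SOX9 and SOX13 they overlapped. In base pairs every H3K4me3 value was lower by the size of the difference between the lists, a log2 of -0.098. The value of SOX12 was 0.07 and turned to -0.031 in base pairs, and that of SOX11 was then 0.05. SOX6 was then below in both siFLI1 lists (-0.21), and SOX12 overlapped. Of 140 H3K27ac regions 7 were gained (5.00%, against 8.19% of the genome), 4 were lost (2.86%, against 4.86%) and 36 were in all 4 lists (25.7%, against 25.1%), and of 29 H3K4me3 regions 2 were gained, 1 was lost and 17 were in all 4 lists, beside 2.17%, 2.83% and 62.6% of the genome's regions.

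**Figure D5:**
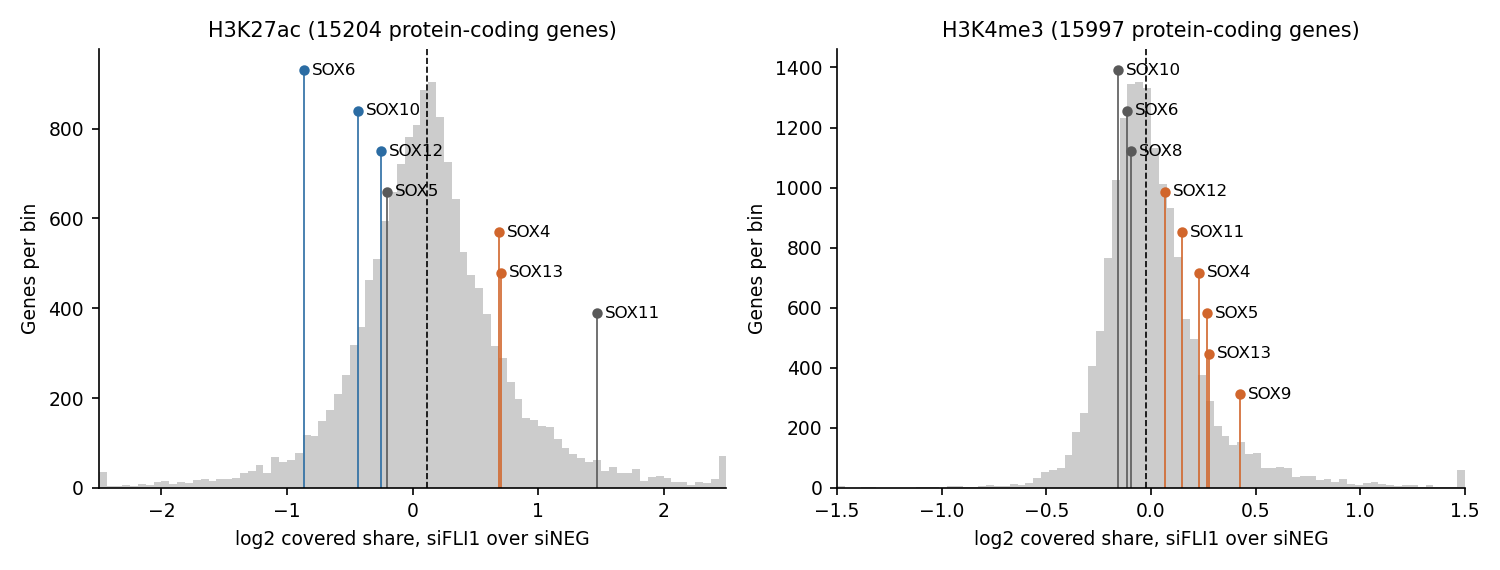
Log2 change in covered share (siFLI1 over siNEG) for all protein-coding genes covered in all 4 lists (grey bars; the outermost bars also hold genes beyond the axis; dashed line, median) with the SOX genes marked (blue, both siFLI1 lists below; orange, both above; grey, overlap). SOX6 lies at -0.87 for H3K27ac, in the lower tail, and SOX9 at 0.43 for H3K4me3, in the upper one.

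Related genes were counted in the same way, as 2 lists. Of 10 other SOX genes, 3 had H3K27ac in all 4 lists, of which SOX15 was above and SOX1 and SOX2 were below. In base pairs SOX2 overlapped, with 12594 and 8297 bp in siNEG and 9756 and 7840 bp in siFLI1. SOX1 had a lower value than SOX6, with 24780 and 24726 bp in siNEG and 13954 and 14705 bp in siFLI1 (log2 share -0.94). For H3K4me3 6 of the 10 were covered, with SOX30 above and SOX2 and SOX21 below. Of 12 partners and targets of SOX factors, 9 had H3K27ac in all 4 lists. ACAN, a cartilage proteoglycan, ERBB3, a receptor of the glial lineage, and TUBB3, a neuronal tubulin, were above, MATN1, a cartilage matrix protein, was below, and 5 overlapped (median log2 share 0.14). For H3K4me3, MATN1 and MITF, a melanocyte factor, were above, and COL2A1, ERBB3, TUBB3 and TEAD2 were below.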

How the data were processed

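The series measured ETS1, H3K27ac and H3K4me3 by ChIP-seq in TC-32 cells. The deposited files analysed here were 14 peak lists, 1 per immunoprecipitated library. Per the submitters' processing notes, cutadapt 4.4, BWA 0.7.17, Picard 2.17.11 and MACS2 2.1.1 were used with the builds GRCh38/hg38 and dm6. What each was used for, the control library, the fragment length and the read depth are not given in the sources used here. The fold ratio of each peak over its local background, its −log10 p-value and −log10 q-value, its score and its summit offset are the authors' values as deposited. The score was not used, and fold served only to describe peaks within a list. H3K4me3 peaks lay over a protein-coding start of hg38 in 59.2% to 64.8% of cases, against 7.10% to 7.35% when moved by 1 Mb, so hg38 coordinates counted from 1 were used.

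Peaks on chromosomes 1 to 22 and X (and Y where listed) were kept. For each antibody the 4 replicated lists were merged wherever intervals shared 1 bp or more, and a region was called gained, lost or shared by the lists that held it. Covered length per window was divided by the list's covered length and tested by an exact permutation test over the 4 lists, with Benjamini-Hochberg adjustment over all protein-coding genes covered in all 4 lists. The scripts were tested on simulated data. Python 3.11.15, pandas 2.3.3, numpy 2.4.6, scipy 1.17.1 and statsmodels 0.14.6 were used. The siFLI1 ETS1 lists were compared by tag heights recovered from fold and −log10 p, of which 99.97% were whole within 0.02 on the −log10 scale. In the siNEG ETS1 lists 4.55% were whole, so the same comparison was not made there.

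All 9 genes are named. Regions are named where a gene had up to 3 gained or lost, otherwise the 3 with the highest deposited fold, and beside repeats. The fourth lost SOX6 region and the shared and neighbouring regions were chosen after their values were seen. The genes and lists were chosen with earlier results of these data known. Alternatives changed the peak threshold, the window, the scaling, the overlap rule and the replicates used. The H3K4me3 result of 1 gene of the partner and target list is not reported here.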

Additional observations from a re-analysis of the deposited data

How the results depend on the processing

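Of 213 values recomputed under alternatives, 182 kept their direction (log2 values) or stayed within 1.5 times (counts), 24 counts moved further and 7 log2 values reversed. The H3K27ac fall at SOX6 kept its direction under every alternative run, from -0.71 without the 5 kb around the repeats to -1.05 with peaks of −log10 q of at least 5. Leaving out 1 list gave -0.76 to -0.98.

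Region counts are small and depended on the lists. The 7 gained H3K27ac regions became 10 to 20 over the settings without 1 replicate, and the 4 lost ones became 8 to 38. The lost count was 7 at a −log10 q of at least 5, 1 when no peak was allowed within 1 kb and 2 when peaks had to cover at least 50% of a region. For H3K4me3 the 2 gained regions became 1 with no peak within 1 kb and 2 to 4 without 1 replicate. The 1 lost region became 0 at the stricter q, with equal numbers of the strongest peaks and with no peak within 1 kb, and 1 to 5 without 1 replicate. The 2 gained ETS1 regions became 0 with equal numbers of the strongest peaks and 2 to 4 without 1 list, the siFLI1 lists being 1 sample. Lost regions with a repeat near the centre numbered 1, 0 with the repeat inside the region, and 2 to 3 without 1 replicate. The cause was not tested, except that fewer lists or peaks loosen or tighten the rule by construction.

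The H3K4me3 value of SOX13 kept its direction but went from 0.28 to 0.08 within 10 kb, and that of SOX11 from 0.15 to 0.05 in base pairs. Without 1 replicate SOX11 H3K27ac ran from -0.13 (without siNEG replicate 2) to 3.07. SOX12 H3K27ac gave 0.70 within 10 kb, and SOX12 H3K4me3 gave -0.031 in base pairs and -0.10 within 10 kb. SOX8 H3K4me3 ran from -0.34 to 0.15, with 0.05 without siFLI1 replicate 1, and SOX10 H3K4me3 from -0.31 to 0.0025 (without siFLI1 replicate 1).

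The replicate numbers did not pair the samples: the correlation of replicate differences was 0.025 for H3K27ac and 0.0074 for H3K4me3 across genes. With the replicate block the log2 values are the same by construction (SOX6 -0.87), and it changed no call. The 50% cover rule, the equal numbers of peaks and the window without repeats were chosen after seeing the data.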
